A study of Mus musculus with 3 samples.

Results

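The genes described here encode receptors, secreted antagonists and signal transducers of the Wnt pathway, 45 in all, out of 19752 genes that could be named on the arrays. They were taken as a list of symbols covering the Frizzled receptors and their partners, secreted inhibitors, R-spondins, the destruction complex, the TCF/LEF factors and feedback targets, and the list rests on symbols, without a threshold on measured values. Expression was measured in skin resident macrophages (F480 CD11b in the labels, the F480 antigen being the product of Adgre1), which were sorted as Gr1-negative cells and isolated by FACS from the backskin of CD1 mice, with no allele or treatment named in the labels, in the early, middle, and late part of telogen (Te, Tm, and Tl), the resting phase of the hair cycle. The RNA of 3 littermates was pooled for each stage. After whole transcriptome amplification, which the small amounts required, each pool was labeled with Cy3 and hybridized to its own Agilent array in 1 color. The labels give these stages as postnatal day 42, 55, and 69, and the paper's text gives a slightly later day for Te. With 1 array per stage there is no replicate, so that all differences below are descriptions of these 3 arrays, without a test.

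Wnt ligands bind a Frizzled receptor together with the co-receptor Lrp5 or Lrp6. Dishevelled proteins then block the destruction complex of Axin, Apc, and Gsk3b, and the β-catenin that accumulates acts with TCF/LEF factors on target genes. Several of these targets encode feedback inhibitors of the pathway. In skin the pathway is best known for the activation of hair follicle stem cells at the end of telogen, and here its parts were examined within the sorted macrophages.

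Levels are given as the log2 signal relative to the 75th percentile of the array, and differences as log2 differences of these levels from the Te array. A probe was taken as measured when the scanner software called it well above background. Where this was so on only 1 of the arrays compared, the difference is a bound, written "at least". The scanner files and the value table deposited by the authors assign the Tm and Tl arrays in opposite ways. Set against the scanner files, the column for Tm fitted the Tl array with a residual SD of 0.0044 (log2), and the column for Tl fitted the Tm array with 0.0057. Both later arrays are therefore always given, named as their scanner files were deposited, with Tl first. Levels without a stage stand in the order Te, Tm, and Tl, and pairs of differences in the order Tl and Tm. The later arrays share the Te array, so that an unusual Te signal would move both differences alike.

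Across the arrays, 59.6% to 71.4% of the 55681 probes were well above background and no spot was saturated. The 75th percentile of the signal was 16.5 to 32.3 times the lowest signal well above background. The median SD among repeated spots was 0.12 to 0.14 on the log2 scale, which gives a difference between arrays an SD of 0.19 and leaves out the variation between mice, sorts, and amplifications. Of the 13 macrophage markers examined, 12 were on the arrays and all of these were well above background on all 3, with a median difference of -0.38 at Tl and -0.50 at Tm and a log2 summed signal of 9.82 at Te, 9.61 at Tm, and then 9.07 at Tl. All 15 keratinocyte markers were also well above background on every array. Their median difference was 2.88 at Tl and 3.29 at Tm, with 11 and 12 of the genes at least 2-fold higher. The log2 summed signal of the keratinocyte list was 8.14 at Te, then 8.73 at Tm and 8.19 at Tl, and most of it came from the probe of Trp63 (8.03, 8.04, and 7.35). In sorted bulk samples, fewer cells of a type and less RNA per cell cannot be told apart.

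For the receptor and the feedback target with the largest increase, Fzd10 and Rnf43, and for the nuclear factor with the largest decrease, Lef1, the 250 bases before the RefSeq transcript start (GRCm38.p6, strand +) are shown, to let a reader see the sequence ahead of the genes that moved most. Capitals mark CTTTGA, a form of the core motif of TCF/LEF factors, or its reverse complement TCAAAG, both strands having been searched. Below, the motif means this form alone, and other forms were neither searched nor marked.
Fzd10, chr5:128600856-128601105: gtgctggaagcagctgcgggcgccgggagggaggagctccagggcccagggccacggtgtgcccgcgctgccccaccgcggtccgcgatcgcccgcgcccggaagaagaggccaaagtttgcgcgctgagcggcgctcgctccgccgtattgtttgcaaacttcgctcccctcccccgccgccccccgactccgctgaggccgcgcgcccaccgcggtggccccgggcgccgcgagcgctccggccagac
Rnf43, chr11:87662837-87663086: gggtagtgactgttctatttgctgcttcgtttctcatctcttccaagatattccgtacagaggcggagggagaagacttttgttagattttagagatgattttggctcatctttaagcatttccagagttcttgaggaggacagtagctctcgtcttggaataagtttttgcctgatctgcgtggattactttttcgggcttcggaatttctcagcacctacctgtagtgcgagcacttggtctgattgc
Rnf43, chr11:87699647-87699896: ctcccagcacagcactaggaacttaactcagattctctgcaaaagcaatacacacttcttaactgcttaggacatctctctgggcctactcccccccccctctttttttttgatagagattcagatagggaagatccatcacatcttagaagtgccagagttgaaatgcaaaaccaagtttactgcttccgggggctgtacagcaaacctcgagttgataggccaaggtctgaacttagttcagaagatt
Lef1, chr3:131156044-131156293: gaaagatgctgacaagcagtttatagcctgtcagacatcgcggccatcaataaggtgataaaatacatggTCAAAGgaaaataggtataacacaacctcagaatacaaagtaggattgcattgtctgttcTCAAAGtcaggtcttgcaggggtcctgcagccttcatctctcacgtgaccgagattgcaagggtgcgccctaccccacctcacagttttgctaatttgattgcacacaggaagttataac
The sequences of Fzd10 and Rnf43 hold no copy of the motif, whereas the most downstream start of Lef1 has 2 copies, both as TCAAAG. The 3 other listed starts of Lef1 have 0 copies, and this start is printed because it is the one with the motif. A promoter was listed for 28 of the 45 members, 35 promoters in total, and 6 of these (17.1%) contain the motif, compared to 13.8% of all 32851 promoters in the table. The 6 genes are Fzd1, Ror1, Dkk1, Frzb, Gsk3b, and Lef1. These are matches of letters within this window and no measurement of binding.

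Most members were measurable in the sorted cells. The number of the 45 members well above background was 37 at Te, and it was 34 at Tm and 39 at Tl. Over all genes the shares were 77.7%, 70.5%, and 77.0%. All 3 arrays measured 32 of the 45 members, beside 66.2% of all genes. On no array were 4 members (Dkk1, Dkk2, Frzb, and Rspo2) well above background, and the share of all genes for this was not computed. The shares of members past 2-fold were close to or below those of all genes. On the Tl array, 9 of the 40 members with a value exceeded their Te level at least 2-fold, as did 22.2% of all genes, and 7 were at least 2-fold lower, as were 20.7% of all genes. On the Tm array, 11 of 38 were higher and 4 lower, beside 29.1% and 16.9% of all genes. The median difference of the members was 0.01 at Tl and -0.17 at Tm, and that of all genes was 0.15 and 0.22. The split of higher and lower members depended on the processing. At Tl 7 were higher and 8 lower with the percentile over probes detected on all arrays, and 4 and 8 with normexp, a model-based background correction. Normexp was run with an offset of 50 added to each corrected signal, which by construction shrinks the differences of dim probes. A dim member that falls under 2-fold with normexp is to be read with this in mind. Other settings leaned to the higher side, with 15 and 1 at Tl and likewise 15 and 1 at Tm when the array median was used, 13 and 5 at Tl after quantile normalization, and 23 and 0 at Tl without scaling. The split at Tm was 8 and 9 with the percentile over probes detected on all arrays, and 6 and 2 with normexp. The median of all genes moved too, to 0.65 at Tl and 0.86 at Tm with the array median and to 1.32 at Tl without scaling. The shares of all genes past 2-fold under these settings were not computed, so that these splits are no result about the members alone.

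At the 10-fold threshold of the study's methods, Rnf43 was the 1 member called higher on the Tl array, where 0.668% of all genes were, and Rnf43 and Fzd10 were called on the Tm array, where 1.12% were. With normexp background correction, 0 members were 10-fold higher on either array, and at Tl the count was also 0 with the percentile over probes detected on all arrays and 4 without scaling. No member was 10-fold lower on either array, and few of all genes were (75 of 16164 with a value at Tl and 50 of 15843 at Tm). With a threshold of 2-fold, 23 members were past it on at least 1 later array, and 17 further members had a value within it. The share of all genes past 2-fold on at least 1 later array was not computed. The 23 therefore only mark the genes described below, and the comparison with all genes is the one given per array.

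**Figure D1:**
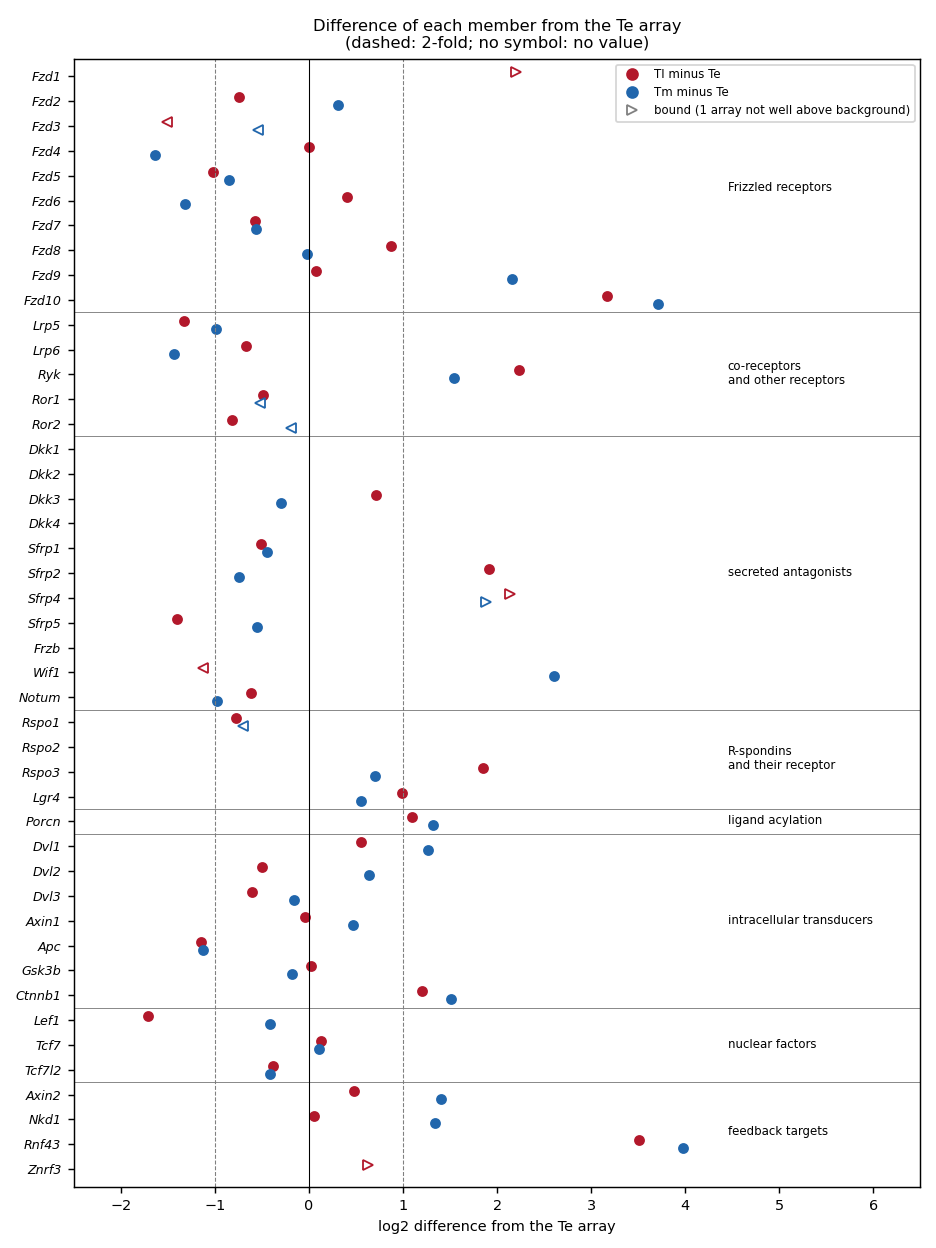
Log2 difference of each member from the Te array for the Tl array (red) and the Tm array (blue), with 1 row per gene grouped by role, open triangles for bounds, and dashed lines at 2-fold. Rnf43 (3.51 and 3.98) and Fzd10 (3.17 and 3.71) lie farthest to the right, and Dkk1, Dkk2, Dkk4, Frzb, and Rspo2 have no value.

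Among the Frizzled receptors, which bind Wnt ligands at the cell surface, Fzd10 stood apart. Its level was -2.85 at Te, 0.86 at Tm, and then 0.32 at Tl, and all of these signals were well above background. Fzd10 was thus 9.01-fold higher at Tl (log2 3.17) and 13.1-fold higher at Tm (log2 3.71). Of the genes measured on both arrays compared, 100 of 14162 had a larger increase at Tl, and 79 of 13249 at Tm. With normexp background correction the differences were 2.29 and 2.71. Most keratinocyte markers, though not all, were higher on the same arrays, as given above, and their part in the level of Fzd10 was not tested.

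Fzd9 and Fzd1 were each higher on only 1 of the later arrays. Fzd9 was at -3.80 at Te, then -1.65 at Tm and -3.73 at Tl. Its difference was 2.16 at Tm, whereas the 0.08 at Tl is less than 2 times the SD from repeated spots. Fzd1 had signals not well above background at Te (-4.35) and Tm (-5.06) and reached -2.16 at Tl. This was 4.58-fold higher than its own dim Te signal (log2 2.20). With normexp the differences were 0.54 for Fzd1 at Tl and 0.91 for Fzd9 at Tm, both under 2-fold.

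The remaining Frizzled genes past 2-fold were lower on a later array. Fzd4, which also serves as the receptor of the non-Wnt ligand norrin, was at 1.22 at Te, -0.41 at Tm, and then 1.22 at Tl, 3.10-fold lower at Tm and without difference beyond spot error at Tl (log2 0.00). Fzd6, a receptor known from planar cell polarity in hair patterning, was likewise lowest at Tm, with -1.08 at Te, then -2.40 at Tm and -0.68 at Tl. Fzd6 was therefore 2.49-fold lower at Tm, though under 2-fold with normexp (-0.93), and 1.32-fold higher at Tl. Fzd5 was at 1.34 at Te, 0.49 at Tm, and then 0.32 at Tl, with differences of -1.02 at Tl and -0.85 at Tm. Its second probe had -0.84 and -0.75, both under 2-fold, and without scaling the difference of the first at Tl was 0.14 in the other direction. Fzd3 was measured only at Te (-3.50) and was at least 2.86-fold lower at Tl and at least 1.46-fold lower at Tm. Its bound at Tl was under 2-fold after quantile normalization (-0.67).

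On their most intense probes, Fzd2 and Fzd8 were within 2-fold of Te on both arrays, with differences of -0.74 and 0.87 at Tl, and 0.30 and -0.02 at Tm. The second probe of Fzd2 had differences of -1.16 at Tl, which is past 2-fold, and 0.37 at Tm. The most intense probe of Fzd7 was at 0.38 at Te, then -0.18 at Tm and -0.19 at Tl, while its second probe was at -1.16, -0.55, and -0.42. These probes disagree, with differences of -0.58 and 0.74 at Tl and of -0.56 and 0.61 at Tm, so that no direction can be given for Fzd7.

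**Figure D2:**
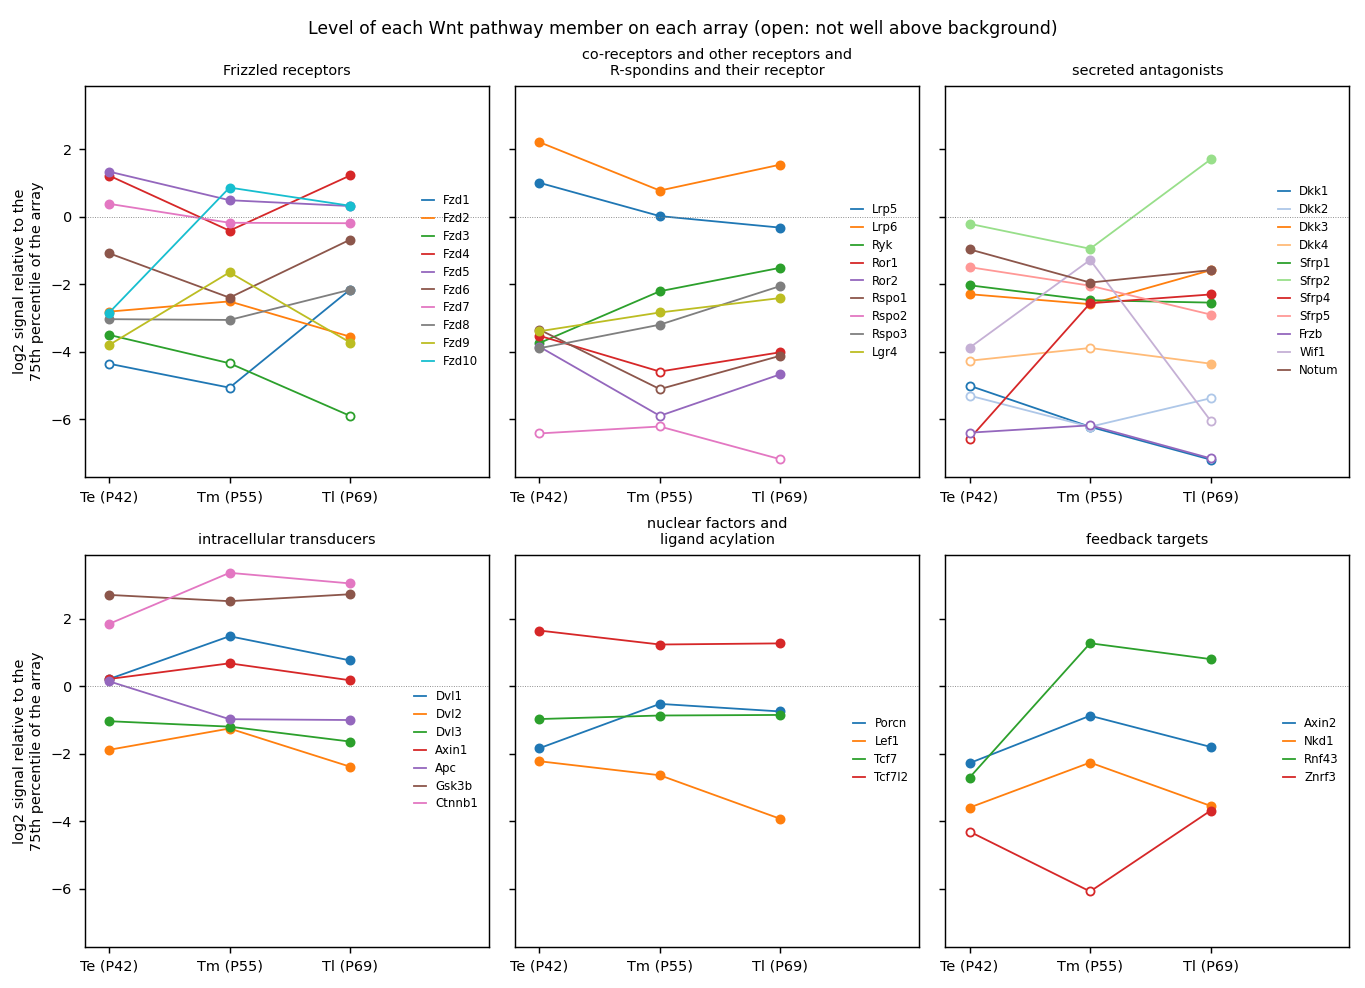
Level of each member on the Te, Tm, and Tl arrays as the log2 signal relative to the 75th percentile of the array, in panels by role, with open circles for signals not well above background and 1 line per gene. Lines show how a gene differs between arrays, since levels of different probes cannot be compared, and the steepest lines belong to Fzd10, Sfrp4, Wif1, and Rnf43.

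Both low-density lipoprotein receptor-related co-receptors of the canonical pathway were lower on the later arrays. Lrp5 was at 1.01 at Te, 0.02 at Tm, and then -0.32 at Tl, which was 2.51-fold lower at Tl and 1.98-fold lower at Tm. Lrp6 was at 2.21, 0.78, and 1.54, which was 1.59-fold lower at Tl and 2.70-fold lower at Tm. Its second probe had differences of -0.94 at Tl and -0.88 at Tm. The later arrays thus differed on the most intense probe of Lrp6 and not beyond spot error on the second. With the array median, the differences of Lrp5 at Tl (-0.81) and Lrp6 at Tm (-0.88) were under 2-fold.

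Ryk, an alternative Wnt receptor related to receptor tyrosine kinases, moved the other way. Its level was -3.74 at Te, then -2.21 at Tm and -1.51 at Tl, 4.70-fold higher at Tl and 2.90-fold higher at Tm. With normexp the log2 differences of Ryk were 0.89 and 0.66, both under 2-fold. Ror1 and Ror2, receptors for non-canonical ligands such as Wnt5a, were measured at Te and Tl but not at Tm. Ror1 had differences of -0.49 at Tl and a bound of -0.52 at Tm, and Ror2 had -0.82 and a bound of -0.19.

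Over the 15 receptors and co-receptors, 3 were at least 2-fold higher and 3 at least 2-fold lower on the Tl array, beside 22.2% and 20.7% of all genes. The same numbers were found on the Tm array, where 14 had a value, beside 29.1% and 16.9% of all genes. The median difference was -0.49 at Tl and -0.53 at Tm. Relative to the median of all genes under the same scaling, the receptor median lay between -0.64 and -0.20 at Tl and between -0.92 and -0.74 at Tm over the 5 scalings tried. All of these but quantile normalization shift an array by a constant, which largely cancels in such a relative value. Their agreement was therefore largely fixed in advance, here and for the other roles. Outside the scalings, the relative receptor median was -0.18 at Tl and -0.59 at Tm with the median over probes. The unadjusted median was above 0 at Tl with the array median (0.03), quantile normalization (0.10), and no scaling (0.67).

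Of the 11 secreted antagonists, most of which bind Wnt ligands or co-receptors outside the cell, 7 had a value on each later array. Wif1, which binds Wnt ligands directly, had the widest spread. Its level was -3.88 at Te and -1.28 at Tm, 6.07-fold higher, and its probe was not well above background at Tl (-6.05), at least 2.19-fold lower than at Te. After quantile normalization this bound was -0.20 (log2), and with normexp the difference at Tm was 1.16. The arrays deposited as Tm and Tl thus gave opposite directions for Wif1.

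The secreted Frizzled-related proteins carry a Frizzled-like domain that binds Wnt ligands. Sfrp2 was at -0.21 at Te, -0.95 at Tm, and then 1.70 at Tl, 3.75-fold higher at Tl and 1.67-fold lower at Tm. Sfrp4 was not well above background at Te (-6.58) and was well above it at both Tm (-2.56) and Tl (-2.30). It was at least 4.41-fold higher at Tl and at least 3.68-fold higher at Tm. With normexp the log2 differences of Sfrp4 were 0.87 and 0.99, both under 2-fold. Sfrp5 went the other way, from -1.49 at Te to -2.04 at Tm and -2.90 at Tl, 2.65-fold lower at Tl (under 2-fold with the array median, -0.88) and 1.46-fold lower at Tm. Sfrp1 had differences of -0.51 and -0.44. Members of this family were thus found on both sides of their Te level.

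Dkk proteins block Lrp5 and Lrp6, apart from Dkk3, a divergent member whose role in the pathway is less clear. Dkk3 was the 1 family member with values, with differences of 0.71 at Tl and -0.30 at Tm, the latter within 2 times the spot SD. Dkk4 was called well above background only at Tl (-4.35), at a level not above its Te signal (-4.27), and no fold is given. Notum, an enzyme that removes the lipid of Wnt ligands, was at -0.97 at Te, then -1.95 at Tm and -1.58 at Tl, 1.53-fold lower at Tl and 1.98-fold lower at Tm.

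Over the antagonists with a value, 2 were at least 2-fold higher and 2 at least 2-fold lower at Tl, beside 22.2% and 20.7% of all genes. At Tm 2 were higher and 0 lower, beside 29.1% and 16.9% of all genes. The median difference was -0.51 at Tl and -0.44 at Tm. Relative to all genes the median lay between -0.66 and 0.14 at Tl over the scalings, the latter after quantile normalization, and between -0.74 and -0.25 at Tm. Other skin cells also express these genes, among them fibroblasts. The 10 fibroblast markers had a median difference of 0.25 at Tl and -0.82 at Tm, with 10 and 8 of them well above background and a log2 summed signal of 6.56 at Te, 5.62 at Tm, and then 5.70 at Tl. Dermal papilla markers were on the arrays with 4 genes, of which Corin was not well above background on any, and had median differences of -0.95 and -1.97. The part of these cells in the values of the antagonists was not tested.

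R-spondins amplify Wnt signals by binding Lgr receptors and removing the ligases Rnf43 and Znrf3 from the surface. Rspo3 was at -3.90 at Te, then -3.20 at Tm and -2.05 at Tl, 3.59-fold higher at Tl and 1.62-fold higher at Tm. With normexp the log2 difference at Tl was 0.64, under 2-fold. Its receptor Lgr4 was at -3.39, -2.84, and -2.41, 1.98-fold and 1.47-fold higher, respectively. Both were thus lowest at Te and highest on the Tl array. Rspo1 had a difference of -0.78 at Tl and a bound of -0.70 at Tm. Porcn, the enzyme that attaches the lipid Wnt ligands need for secretion, was at -1.84 at Te, -0.53 at Tm, and then -0.75 at Tl, 2.13-fold higher at Tl and 2.49-fold higher at Tm. Its log2 difference at Tl was 0.81 with normexp, and both differences were under 2-fold (0.89 and 0.94) with the percentile over probes detected on all arrays.

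The intracellular transducers were all measured on all 3 arrays, and their differences lay between -1.15 and 1.20 at Tl and between -1.12 and 1.51 at Tm, compared to -1.51 to 3.17 and -1.63 to 3.71 for the Frizzled receptors. Ctnnb1, which encodes β-catenin, was at 1.84 at Te, then 3.35 at Tm and 3.04 at Tl. It was 2.30-fold higher at Tl (log2 0.99, just under 2-fold, with the other percentile) and 2.86-fold higher at Tm. β-catenin also anchors cadherins at cell junctions, and Cdh1, a keratinocyte marker encoding E-cadherin, was 4.56 higher at Tl and 4.52 higher at Tm on the log2 scale. Of the 15 genes on that list, 11 at Tl and 12 at Tm were at least 2-fold higher. Others were not, among them Trp63 (-0.68 and 0.01), Itga6 (0.06 and 0.01), and Ivl (-0.07 and -0.77). Whether transcripts of keratinocytes contribute to the signal of Ctnnb1 was not tested.

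Within the destruction complex, which marks β-catenin for degradation, Apc was lower on both later arrays and the others were close to Te. Apc was at 0.14 at Te, -0.98 at Tm, and then -1.01 at Tl, 2.22-fold lower at Tl and 2.18-fold lower at Tm. The array median gave -0.63 and -0.57, both under 2-fold, and without scaling the difference at Tl was 0.015. Its second probe had differences of -0.59 at Tl and -1.07 at Tm. Axin1, the scaffold of the complex, had differences of -0.04 and 0.46, the former within 2 times the spot SD. Gsk3b, its kinase, was at 2.70 at Te, then 2.51 at Tm and 2.72 at Tl on the most intense of 3 probes, with differences of 0.02 and -0.19, both within 2 times the spot SD. The dimmest probe of Gsk3b was at -1.86, -1.19, and -0.90 and had differences of 0.96 and 0.67, and the third probe had 0.09 and -0.03.

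The Dishevelled genes, which relay the signal from Frizzled receptors, differed from each other. Dvl1 was at 0.21 at Te, 1.48 at Tm, and then 0.76 at Tl, 1.47-fold higher at Tl and 2.41-fold higher at Tm (log2 0.90, under 2-fold, with the other percentile). Dvl2 had differences of -0.50 and 0.63, and Dvl3 of -0.60 and -0.16. Only Dvl1 was above its Te level on both later arrays, and the sign of its difference was kept under all the alternatives tried at Tm.

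Among the nuclear factors, Lef1 was the member with the lowest measured difference at Tl. Its level was -2.23 at Te, then -2.64 at Tm and -3.93 at Tl, 3.27-fold lower at Tl and 1.33-fold lower at Tm. At Tl, 712 of 14162 measured genes had a larger decrease. Without scaling, the difference at Tl was -0.54, under 2-fold. Tcf7 was at -0.98, -0.87, and -0.86 on its most intense probe, with differences of 0.12 and 0.11. Its second probe was at -3.41, -3.54, and -3.33 and had differences of 0.07 and -0.13. All of these are within 2 times the spot SD, so that the disagreement in sign at Tm carries no direction. Lef1 and Tcf7 are also expressed by T cells, whose 5 markers were all well above background with median differences of 1.03 at Tl and 0.71 at Tm and a log2 summed signal of 0.95 at Te, 2.65 at Tm, and then 1.89 at Tl. Their part in the values of Lef1 and Tcf7 was not tested.

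Tcf7l2, the TCF factor with many splice forms, is covered by 3 probes named through different transcripts, and they disagree. The most intense was at 1.64 at Te, then 1.23 at Tm and 1.26 at Tl (differences -0.38 and -0.41). The second was at 0.32, -0.86, and -0.61 (-0.93 and -1.18), and the third at -2.05, -1.64, and -1.67 (0.38 and 0.41). A single direction for the gene is therefore not given.

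**Figure D3:**
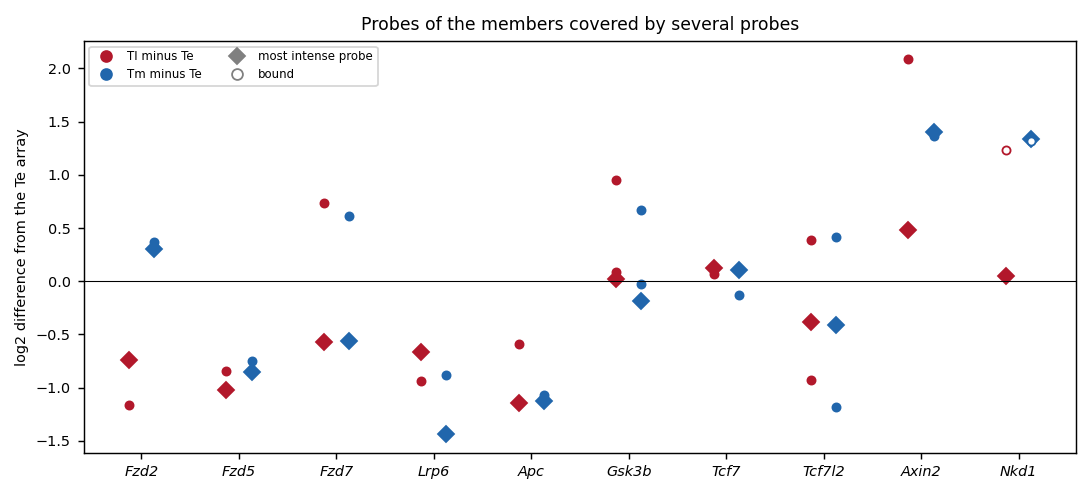
Log2 difference from the Te array of every probe of the 10 members with several probes, with the Tl array in red, the Tm array in blue, diamonds for the most intense probe, and open symbols for bounds. The probes of Fzd7 and Tcf7l2 lie on both sides of 0, whereas both probes of Axin2 lie above it.

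Over the 10 transducers and nuclear factors, 1 was at least 2-fold higher and 2 at least 2-fold lower at Tl, where 22.2% and 20.7% of all genes were. At Tm, where the shares of all genes were 29.1% and 16.9%, 2 of the 10 were higher and 1 lower. Their median difference was -0.21 at Tl and -0.03 at Tm. Relative to all genes it lay between -0.42 and -0.34 at Tl and between -0.33 and -0.10 at Tm over the scalings, while the unadjusted median was above 0 on both arrays with the array median (0.31 and 0.53) and without scaling (0.95 and 0.23), and at Tm also after quantile normalization (0.22).

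The feedback targets are induced by β-catenin and restrain the pathway, and they contain the largest difference of all members. Rnf43, a ubiquitin ligase that removes Frizzled receptors from the cell surface, was at -2.71 at Te, 1.27 at Tm, and then 0.80 at Tl, well above background on all arrays. It was 11.4-fold higher at Tl (log2 3.51) and 15.8-fold higher at Tm (log2 3.98). Of the measured genes, 50 of 14162 had a larger increase at Tl, and 57 of 13249 at Tm. Over the alternatives the difference at Tl ranged from 2.73 with normexp background correction to 4.67 without scaling. Rnf43 has 1 probe with 1 spot on each array. Of the 15 keratinocyte markers, 11 at Tl and 12 at Tm were also at least 2-fold higher, whereas Trp63, Itga6, and Ivl were so on neither array. The part of keratinocytes in the level of Rnf43 was not tested.

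The paralog Znrf3, with the same function, was well above background only at Tl (-3.69), where it was 1.54-fold higher than its own dim Te signal. Axin2, the inducible scaffold that is the usual readout of the pathway, was at -2.28 at Te, then -0.88 at Tm and -1.80 at Tl on its most intense probe and at -3.39, -2.02, and -1.31 on the other. These probes gave like differences at Tm (1.40 and 1.37) but unlike ones at Tl (0.48 and 2.08). Nkd1, which binds Dishevelled and dampens the signal, was at -3.60 at Te, -2.27 at Tm, and then -3.55 at Tl, 2.52-fold higher at Tm and within spot error at Tl (log2 0.05). Its second probe was not well above background at Te and was at least 2.35-fold higher at Tl and at least 2.50-fold higher at Tm. The size of the difference at Tl therefore depended on the probe for both genes. With normexp the differences at Tm were 0.97 for Axin2 and 0.47 for Nkd1, both under 2-fold.

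Of the 4 feedback targets, 1 was at least 2-fold higher at Tl, beside 22.2% of all genes. At Tm all 3 with a value were, beside 29.1% of all genes. The median difference was 0.55 at Tl and 1.40 at Tm, and relative to all genes it lay between 0.40 and 0.98 and between 1.11 and 1.80, respectively, over the scalings. With normexp background correction the median was 0.16 and 0.97, which is 0.13 and 0.85 relative to all genes and below these ranges. A wider list of 9 members that are known targets adds Notum, Lef1, Tcf7, Dkk1, and Dkk4. At Tl, 1 of 7 with a value was higher and 1 lower (14.3% each), beside 22.2% and 20.7% of all genes. At Tm, 3 of 6 were higher and 0 lower, beside 29.1% and 16.9% of all genes, and these 3 are the feedback targets already counted. Its median difference was 0.12 at Tl and 0.72 at Tm. At Tl, Rnf43 and Lef1 were at the ends of this list, whose shares past 2-fold were below those of all genes.

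**Figure D4:**
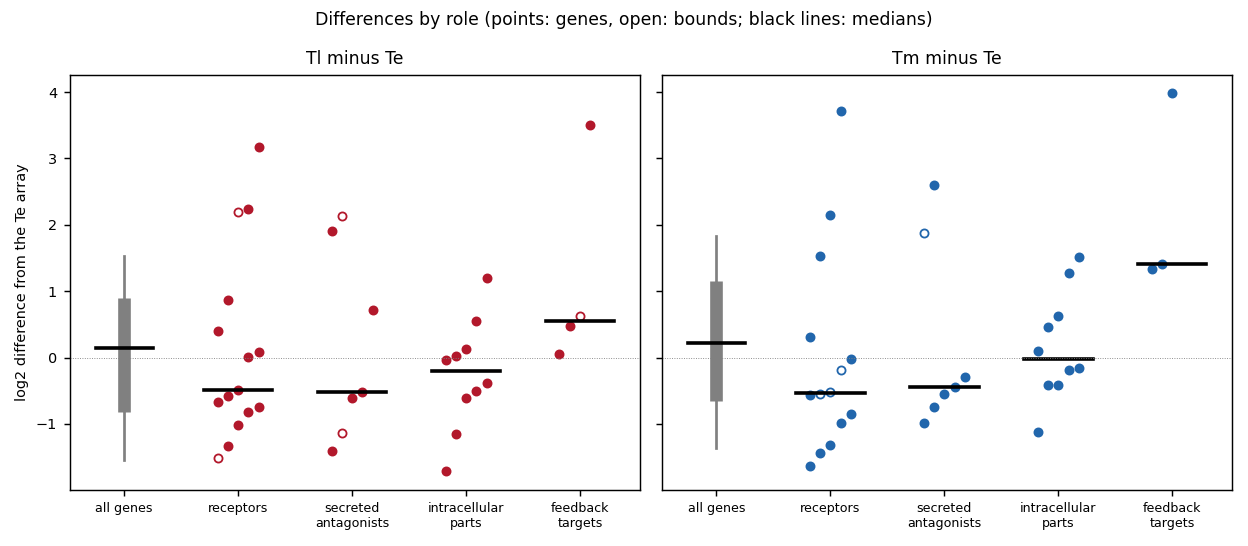
Log2 differences from the Te array by role for the Tl array (left) and the Tm array (right), with 1 point per gene, open circles for bounds, black lines for medians, and for all genes a grey box for the quartiles with a line from the lowest to the highest decile. The medians of receptors (-0.49 and -0.53) and antagonists (-0.51 and -0.44) lie below that of all genes (0.15 and 0.22), and the median of the feedback targets (0.55 and 1.40) lies above it.

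Further genes of the pathway were examined as a list of 59, all on the arrays. At Tl 52 of these had a value, of which 18 were at least 2-fold higher and 5 lower, beside 22.2% and 20.7% of all genes, and the median was 0.68, beside 0.15. At Tm 19 of 51 were higher and 4 lower, beside 29.1% and 16.9% of all genes, with a median of 0.43, beside 0.22. The genes named here are the 10 with the largest mean difference among those at least 2-fold from Te in the same direction on both later arrays. Some of them act in planar cell polarity, the branch that orients cells within an epithelium. Celsr1, an atypical cadherin, was 2.58 higher at Tl and 2.79 at Tm, Vangl2 2.32 and 2.76, Vangl1 2.16 and 1.31, and the pseudokinase receptor Ptk7 1.39 and 2.49. The largest difference on average was that of Sostdc1, a secreted inhibitor of Wnt and BMP signals, with 3.04 at Tl and 2.59 at Tm. The ligand carrier Wls (2.20 and 1.60), Cxxc5 (1.42 and 2.26), the corepressor Tle2 (1.90 and 1.65), and Fbxw11 (1.65 and 1.88), which recognizes β-catenin for degradation, followed. Nkd2, the paralog of Nkd1, was at 4.35 at Te, then 2.40 at Tm and 3.12 at Tl, with differences of -1.23 and -1.95. Nkd1, by contrast, was higher than Te at Tm. Celsr1, Vangl2, and Ptk7 are also expressed in epithelium. Most keratinocyte markers, though not all, were higher on the same arrays, and the part of keratinocytes in these values was not tested.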

How the data were processed

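The authors quantified each array with Feature Extraction 10.7 (per the labels' processing notes) and deposited, for each array, the intensity of each spot (linear, background-corrected, and not normalized between arrays). A table of log2 values that they deposited beside it covers 36409 probes that vary between the arrays, centered per probe, with a normalization that is not given in the sources used here. Its column medians are 0.36, 0, and 0 for Te, Tm, and Tl, and it served only as an alternative.

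Control and outlier spots were left out, spots of a probe were averaged, and each array's 75th percentile was subtracted from the log2 of the processed signals (Python 3.11.15, pandas 2.3.3, numpy 2.4.6). A probe counted as well above background when at least 0.5 of its spots did. With 1 array not well above background, the difference was taken against that array's lowest signal above background or, if this was higher, the signal of the dim probe itself. Probes were named by their RefSeq transcript (26056 of 55681 probes). Members have 57 probes, of which 35 members have 1, 8 have 2, and 2 have 3, and the most intense on average stands for the gene. A difference of 2-fold counted as changed. The steps were tested on simulated data. Values on every array are given for members past 2-fold and for members whose probes disagree in direction. Alternatives were other scalings, normexp correction (limma 3.58.1, R 4.3.3, offset 50), other filters on dim probes, the median over probes, outlier spots kept, and the value table. The number of arrays limits the precision. The members and all gene lists were chosen with earlier results of these data known. Promoter sequences are from RefSeq (GRCm38.p6), and the arrays carry no probe sequence in the files used here.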

Additional observations from a re-analysis of the deposited data

Results flagged for a closer look

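Wif1 was marked because its differences from Te had opposite signs on the later arrays, with a bound of -1.13 on the Tl array and 2.60 on the Tm array. This difference was not tested, since each stage has 1 array. In the value table of the authors, which assigns the later arrays the other way, the signs were exchanged. Both comparisons share the Te array, so that the opposite signs come down to the later arrays, at -6.05 (not well above background) and -1.28.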

How the results depend on the processing

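Of the 31 differences of members past 2-fold, all kept their direction under the other percentile, quantile normalization, the array median, normexp, both other filters on dim probes, the median over probes, and with outlier spots kept. Without scaling, Fzd5 (0.14) and Apc (0.015) at Tl changed sign, and 1 difference had no value. Past 2-fold, however, fewer remained: of the 31, 12 were under 2-fold with normexp, 9 with the array median, 7 without scaling, 5 with the other percentile, 3 after quantile normalization, 2 with the median over probes, and 15 in the value table. With detection on both arrays required, 26 had a value and all kept their direction. This filter and the other filters on dim probes leave the scaled signals as they are, so that they could not change a direction. In the value table, whose later columns are exchanged against the scanner files, 6 were of the other sign. These were Fzd1 (-0.71), Sfrp2 (-0.74), and Wif1 (2.61) at Tl and Wif1 (-2.16), Fzd4 (0.0016), and Fzd6 (0.40) at Tm.

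Medians by role moved with the scaling, as did the median of all genes (0.15 at Tl and 0.22 at Tm), which became 0.65 and 0.86 with the array median, 1.32 and 0.52 without scaling, 0.30 and 0.32 after quantile normalization, and -0.05 and -0.16 with the percentile over probes detected on all arrays. Values below are for Tl and then Tm. With that percentile, the medians were -0.70 and -0.90 for receptors, -0.72 and -0.82 for antagonists, -0.42 and -0.40 for intracellular parts, and 0.35 and 1.03 for feedback targets, with 9 members at least 2-fold lower at Tm. With the array median they were 0.031 and -0.0039, 0.22 and 0.11, 0.31 and 0.53, and 1.07 and 1.96, with 15 members higher at Tl and 1 lower on each array. Without scaling they were 0.67 and -0.28, 1.08 and -0.18, 0.95 and 0.23, and 1.71 and 1.67, with 23 members higher and 0 lower at Tl. After quantile normalization they were 0.10 for receptors at Tl, 0.44 and 0.062 for antagonists, 0.22 for intracellular parts at Tm, and 1.29 and 2.12 for feedback targets.

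With normexp, feedback targets had medians of 0.16 and 0.97, 4 and 6 members were higher, and 2 were lower at Tm. In the value table, which holds 31 members, medians were -0.84 for receptors at Tl, 0.64 and -0.50 for intracellular parts, and 1.37 and 0.55 for feedback targets, with 8 members lower at Tm. Its later columns are exchanged against the scanner files, so that these values belong to the other later array. They also rest on fewer members and on no filter for dim probes, so that the exchange alone does not account for them. Without a filter on dim probes, and with positive and significant signal in its place, the receptor median was -0.84 at Tm and 9 members were lower at Tm, and the latter filter gave -0.30 for antagonists at Tl. With the median over probes, receptors had 0.0009 and feedback targets 0.96 at Tl. The cause of these shifts was not tested beyond the match of columns to arrays. For normexp, the added offset shrinks the differences of dim probes by construction. Assigning probes also by a gene name column was not run, since the scanner files used here have no such column.

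No paired analysis was possible because each stage has 1 array. Signals within background, as for Fzd1 and Sfrp4 at Te and Fzd3 and Wif1 at Tl, limit these members to bounds.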
